A study of Mus musculus with 6 samples.

Results

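Endothelial cells line the blood and lymph vessels, and 33 genes that mark them or signal to them were followed here in RNA of mouse granulosa cells, the somatic cells that surround the oocyte in the ovarian follicle. The genes were chosen by name, with earlier results of these data known, and matched by symbol. They are 33 of the 49315 genes in the count files. They fall into 24 genes of blood vessel endothelium, 3 of lymphatic endothelium (Flt4, Lyve1 and Prox1), the co-receptor gene Nrp1 and 5 genes of angiogenic ligands (Vegfa, Vegfc, Angpt1, Angpt2 and Apln). All 33 had enough counts to be tested, with 12 to 5432 counts per gene and library. The libraries came from granulosa cells freshly isolated from ovaries of C57BL/6J female mice aged 8 to 9 weeks. Of the 6 libraries, 3 were labelled wild type (WT) and 3 were labelled knockout (KO) of Jmjd3, a histone demethylase gene also named Kdm6b, with the deletion aimed at granulosa cells per the series' design text. The sources used here do not give the promoter that drove the deletion, the removed exons, the stage of the oestrous cycle or the number of animals behind a library. Nothing says that the libraries of a group came from separate animals. The p-values set the difference between groups against the spread of these libraries. That spread may be technical, so the p-values may not extend to other animals.

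The granulosa layer of a growing follicle holds no blood vessels. Vessels lie in the theca outside the basement membrane and grow inward after ovulation, when the corpus luteum forms. Granulosa and luteal cells make vascular endothelial growth factor A, which acts on the receptors KDR and FLT1 of endothelial cells, and the angiopoietins ANGPT1 and ANGPT2 act on the receptor TEK. Vascular endothelial growth factor C acts mainly on FLT4 in lymphatic vessels, and apelin acts on APLNR.

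Total counts per library ranged from 42379018 to 49901493. The granulosa markers Inha (6400 to 10000 CPM) and Foxl2 (106 to 129 CPM) were high in every library, where CPM are read counts scaled to the normalised library size. Kdm6b itself had 66.2 to 72.8 CPM in WT against 64.7, 68.6 and 112 CPM in the KO libraries (log2 fold change 0.26 ± 0.22 SE, adjusted p = 0.755, edgeR), so it was not lower in KO, and over the whole gene its RNA does not check the label. Triplets of values are given in the order of replicates 1 to 3. KO replicates 1 and 3 stood apart from the rest, with 22.2% and 21.8% of all tested genes highest in them, against 10.1% to 16% in each of the other 4 libraries. In these bulk samples, fewer cells of a type and less RNA per cell cannot be told apart.

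None of the 33 genes passed the test for a difference between KO and WT at an adjusted p under 0.05 (edgeR's quasi-likelihood test, Benjamini-Hochberg adjustment over 18250 genes, of which 0.219% passed, 0.126% higher and 0.0932% lower in KO). At an unadjusted p under 0.05, 5 of the 33 stood out (Flt4, Lyve1, Vegfa, Vegfc and Plvap), as did 1671 of all tested genes, and DESeq2 called Flt4 and Lyve1. With the replicate number as a block 0 members passed, against 0.0822% of tested genes. The 24 endothelial genes had a median log2 fold change (KO minus WT) of 0.27, the 3 lymphatic genes of 0.45 and the 5 ligand genes of -0.17, against 0 over all genes tested. The sign was positive for 23, 3 and 2 genes of these groups. Of the 33, 4 had every KO library above every WT library (Flt4, Lyve1, Prox1 and Vegfa), against 7.68% of tested genes, and 0 had every KO library below, against 7.89%.

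**Figure D1:**
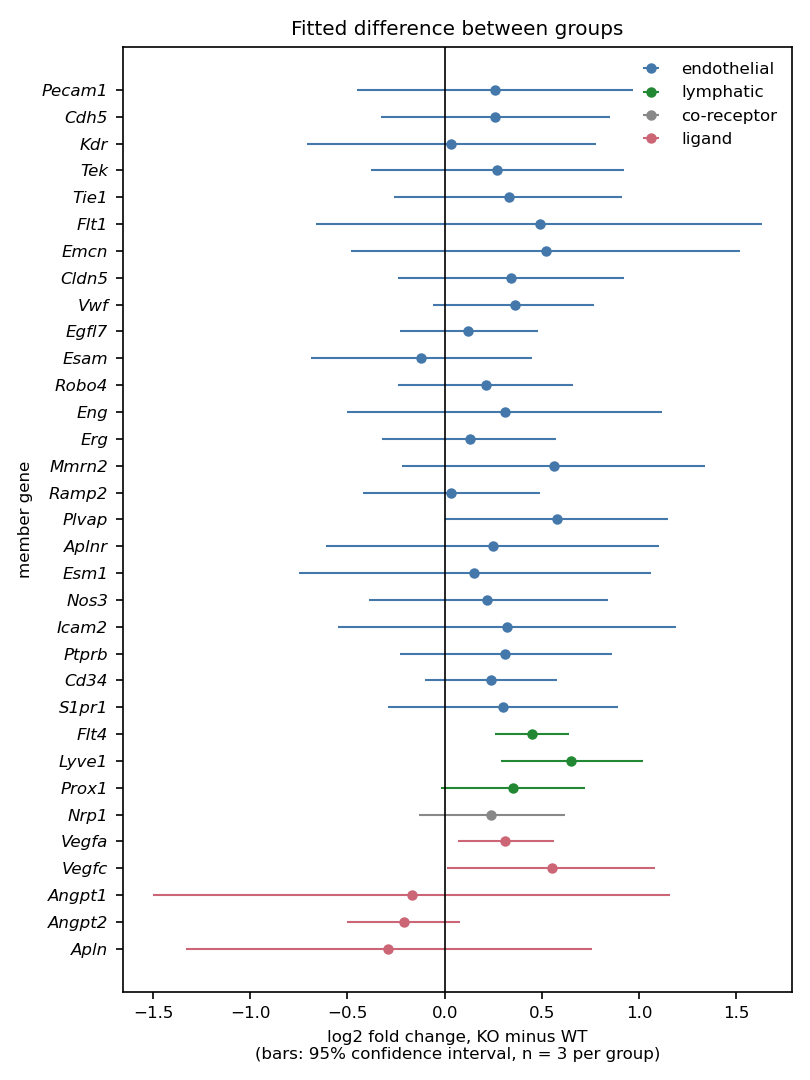
Fitted log2 fold change (KO minus WT) of each of the 33 genes, with its 95% confidence interval, n = 3 libraries per group, coloured by gene group. Intervals of endothelial genes reach from -0.75 to 1.63, while those of Flt4, Lyve1, Vegfa, Vegfc and, just, the endothelial gene Plvap lie above 0 before adjustment over all genes.

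The blood vessel genes moved together across libraries, and the libraries at both ends of their range were KO libraries. All 24 were highest in KO replicate 1, as were 22.2% of all tested genes. In that library their levels relative to the WT mean had a median of 0.74 on the log2 scale, from 0.26 (Esam) to 1.16 (Emcn and Flt1). KO replicate 3 lay at the other end: 14 of the 24 were lowest there, against 21.7% of all tested genes, and 22 lay below the WT mean, with a median of -0.26. KO replicate 2 had a median of 0.21, and 22 of the 24 genes stood between the other KO libraries there, against 49.1% of tested genes. The WT libraries had medians of 0.08, -0.19 and 0.09. The SD over the KO libraries exceeded that over the WT libraries in all 24, as it did in 58.5% of tested genes.

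**Figure D2:**
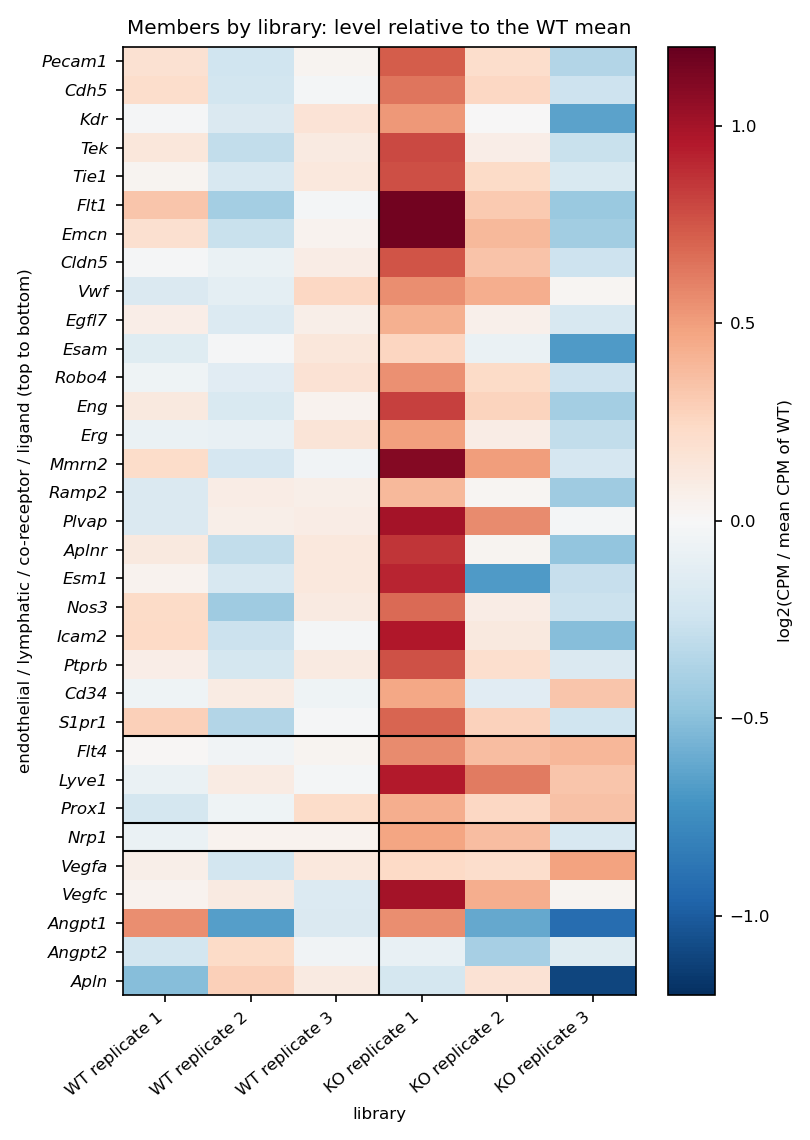
Level of each of the 33 genes in each library relative to its WT mean, as log2(CPM / mean CPM of WT), red above and blue below. The 24 endothelial genes at the top are red in KO replicate 1 and, apart from Cd34 and Vwf, below the WT mean in KO replicate 3, whereas the 3 lymphatic genes are above it in every KO library.

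Junction and adhesion genes showed this pattern plainly. Pecam1, which encodes an adhesion molecule at endothelial cell borders (chromosome 11, 106654217 to 106750628, GRCm38), stood at 31.9, 23.8 and 28.8 CPM (WT) against 46.5, 32.5 and 22.1 CPM (KO). The KO libraries enclosed the whole WT range, and the log2 fold change was 0.26 ± 0.28 SE (95% interval of -0.45 to 0.97, adjusted p = 0.812, edgeR). Cdh5, the cadherin of endothelial junctions (chromosome 8, 104101625 to 104144511), stood at 43.2, 32 and 36.6 CPM (WT) against 58.3, 44.2 and 31.4 CPM (KO). Its difference was 0.26 ± 0.24 SE (adjusted p = 0.774, edgeR), and again KO replicate 3 lay below and KO replicate 1 above every WT library. The tight junction gene Cldn5 ranged from 18 to 20.3 CPM in WT and from 16.1 to 32.1 CPM in KO. Esam, another adhesion gene of endothelial junctions, was the only one of the 24 with a negative fold change (-0.12 ± 0.23 SE, adjusted p = 0.909, edgeR), standing at 40.7 CPM in KO replicate 1 and 21.3 CPM in KO replicate 3. Icam2, an adhesion molecule for leukocytes, spanned 3.63 to 5.14 CPM in WT and 3.05 to 8.49 CPM in KO. Emcn, an endothelial sialomucin, stood at 9.44, 6.86 and 8.49 CPM (WT) against 18.5, 10.8 and 6.19 CPM (KO).

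Cd34, a sialomucin of endothelial and progenitor cells, did not follow the others in KO replicate 3. It stood at 56.7, 62.9 and 57 CPM (WT) against 80.9, 53.4 and 74.2 CPM (KO). In KO replicate 3 it was 0.6 above the endothelial median on the log2 scale, and in KO replicates 1 and 2 it was 0.28 and 0.35 below it. The groups overlapped, with a difference of 0.24 ± 0.15 SE (adjusted p = 0.653, edgeR).

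The receptor genes Kdr, Flt1, Tek and Tie1 had the same order of KO libraries as Pecam1 and Cdh5, while the lymphatic receptor gene Flt4 did not. Kdr, the main receptor of vascular endothelial growth factor A (chromosome 5, 75932827 to 75978458), stood at 34.9, 31.2 and 39.3 CPM (WT) against 50.3, 35.1 and 22.6 CPM (KO). Its group means were 35.2 ± 4.03 and 36 ± 13.9 CPM (SD, n = 3), a log2 fold change of 0.03 ± 0.3 SE (adjusted p = 0.979, edgeR). Flt1, which encodes a receptor and decoy for the same ligand, stood at 12.1, 7.24 and 9.5 CPM (WT) against 21.5, 11.9 and 7.04 CPM (KO). The angiopoietin receptor gene Tek ranged from 6.36 to 8.64 CPM in WT and from 6.48 to 13.5 CPM in KO, and its orphan partner Tie1 from 15 to 18.7 and from 15 to 29.1 CPM. For Tek and Tie1, KO replicate 1 stood above all WT libraries and KO replicate 3 lay within or at the edge of the WT range. Ptprb, the phosphatase that restrains TEK, had a difference of 0.31 ± 0.23 SE, and Eng, a co-receptor for BMP ligands, one of 0.31 ± 0.32 SE (adjusted p of 0.715 and 0.802, edgeR).

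Other receptor genes differed in how low KO replicate 3 was. The apelin receptor gene Aplnr stood at 7 CPM there against 7.87 to 10.6 CPM in WT, and the sphingosine 1-phosphate receptor gene S1pr1 at 6.25 CPM against 5.77 to 8.99 CPM. Robo4, an endothelial guidance receptor gene, stood at 4.92 CPM there against 5.33 to 6.62 CPM in WT. All 3 were highest in KO replicate 1, at 17.6, 11.9 and 8.6 CPM. Ramp2, the partner of the adrenomedullin receptor, stood at 10.8 CPM in KO replicate 3 and 19.1 CPM in KO replicate 1, but 33.4% of its exonic bases are shared with Vps25, so its value is uncertain.

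Among secreted, structural and regulatory endothelial genes, Plvap and Mmrn2 had the largest differences. Plvap, which builds the diaphragms of fenestrated capillaries (chromosome 8, 71497765 to 71511752), stood at 8.68, 10.3 and 10.4 CPM (WT) against 19.5, 14.6 and 9.64 CPM (KO) (0.58 ± 0.24 SE, adjusted p = 0.545, edgeR). KO replicates 1 and 2 lay above the WT range and KO replicate 3 within it. Mmrn2, a matrix glycoprotein gene of the vessel wall, stood at 9.28, 6.95 and 7.75 CPM (WT) against 17.1, 11.3 and 6.96 CPM (KO) (0.56 ± 0.32 SE, adjusted p = 0.647, edgeR). Vwf, the clotting protein stored in endothelial granules, ranged from 3.97 to 5.31 CPM in WT and from 4.51 to 6.59 CPM in KO. The ETS family transcription factor gene Erg (0.13 ± 0.2 SE) and the secreted vessel factor gene Egfl7 (0.12 ± 0.15 SE) had smaller differences (adjusted p of 0.87 and 0.835, edgeR). The nitric oxide synthase gene Nos3 had one of 0.22 ± 0.26 SE, with 25.2% of its exonic bases overlapped by the antisense gene Gm15587, so that value is uncertain too. Esm1, a tip cell proteoglycan gene, had the fewest counts of the 33, 12 to 40 per library, at 0.399 to 0.496 CPM in WT and 0.283 to 0.853 CPM in KO.

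The promoters of endothelial genes are shown for a feature that the choice of genes did not use. ETS factors such as ERG bind sequences with a GGAA core in endothelial promoters, and the hexamers CAGGAA and GGAAGT were searched on both strands in the 250 bases before each annotated start (RefSeq, GRCm38.p6). Their reverse complements are TTCCTG and ACTTCC. The hexamers share the letters GGAA, and overlapping matches count separately. Of the 33 genes 18 had a promoter in the table. There were 16 promoters of 12 endothelial genes, some of them alternative starts of 1 gene. Of these promoters 12 (75%) held at least 1 match and 7 (43.8%) held at least 2, against 38.6% and 11.2% of all 32851 promoters. Of 4 promoters of ligand genes, 2 (50%) held at least 1 match and 0 held at least 2. The promoter with the most matches of each gene with at least 2 is printed 5′ to 3′ with the matches in capitals, except that of Tie1, of which 212 bases lie in annotated exons. They lie at chr2:26580833-26581082 (Egfl7), chr1:194938571-194938820 (Cd34), chr3:137340828-137341077 (Emcn), chr13:113209409-113209658 (Esm1) and chr4:94739039-94739288 (Tek), all on the plus strand.
Egfl7: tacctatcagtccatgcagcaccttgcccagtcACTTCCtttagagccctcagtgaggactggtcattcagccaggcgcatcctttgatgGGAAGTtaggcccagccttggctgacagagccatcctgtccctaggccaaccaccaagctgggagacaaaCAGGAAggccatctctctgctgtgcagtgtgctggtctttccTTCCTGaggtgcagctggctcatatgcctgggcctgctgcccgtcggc
Cd34: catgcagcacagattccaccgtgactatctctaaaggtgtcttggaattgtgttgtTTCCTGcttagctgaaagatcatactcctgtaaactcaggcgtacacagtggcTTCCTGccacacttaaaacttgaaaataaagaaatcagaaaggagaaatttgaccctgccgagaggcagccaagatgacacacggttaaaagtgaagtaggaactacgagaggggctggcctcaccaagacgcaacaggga
Emcn: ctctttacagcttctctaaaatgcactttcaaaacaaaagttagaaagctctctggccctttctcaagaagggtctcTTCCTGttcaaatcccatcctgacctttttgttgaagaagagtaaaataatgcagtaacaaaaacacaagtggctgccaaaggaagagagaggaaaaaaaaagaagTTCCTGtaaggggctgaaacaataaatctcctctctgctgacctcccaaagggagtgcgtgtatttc
Esm1: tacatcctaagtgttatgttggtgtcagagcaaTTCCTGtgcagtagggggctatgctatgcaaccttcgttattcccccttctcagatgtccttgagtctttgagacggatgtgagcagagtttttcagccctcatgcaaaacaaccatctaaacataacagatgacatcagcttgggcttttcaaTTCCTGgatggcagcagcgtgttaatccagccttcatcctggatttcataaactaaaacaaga
Tek: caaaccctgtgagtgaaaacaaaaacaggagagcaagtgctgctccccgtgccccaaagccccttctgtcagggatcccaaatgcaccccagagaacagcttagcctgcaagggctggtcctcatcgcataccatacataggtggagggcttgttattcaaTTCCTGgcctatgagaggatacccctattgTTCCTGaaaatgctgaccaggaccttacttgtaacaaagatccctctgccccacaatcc
A match describes the letters only, and binding was not measured. A link between matches and the levels in the libraries was not tested. In the Egfl7 promoter 27 bases lie in annotated exons. Egfl7 had 4 matches and the others 2 each.

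In each of the 3 lymphatic genes every KO library stood above every WT library. This was so for 0 of the 24 blood vessel genes, 7.68% of all tested genes and 7 of 7 red blood cell genes. In the red blood cell gene Hba-a2 the separation was a near tie. The difference between these groups of genes was not tested. Flt4, the receptor of vascular endothelial growth factor C (chromosome 11, 49609263 to 49652739), stood at 15.4, 14.9 and 15.7 CPM (WT) against 22.8, 19.8 and 20.3 CPM (KO). The gap between groups was wider than the range within either, and the log2 fold change was 0.45 ± 0.09 SE (95% interval of 0.26 to 0.64, adjusted p = 0.11, edgeR). Lyve1, a hyaluronan receptor of lymphatic endothelium and of some macrophages (chromosome 7, 110850607 to 110863239), stood at 5.72, 6.44 and 5.93 CPM (WT) against 11.7, 9.25 and 7.56 CPM (KO). Its difference was 0.65 ± 0.16 SE (95% interval of 0.29 to 1.02, adjusted p = 0.242, edgeR). Prox1, the transcription factor that sets lymphatic identity, stood at 2.37, 2.67 and 3.21 CPM (WT) against 3.73, 3.27 and 3.51 CPM (KO) (0.35 ± 0.17 SE, adjusted p = 0.575, edgeR).

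In KO replicate 3 these 3 lymphatic genes stood 0.59 to 0.66 above the endothelial median on the log2 scale. The endothelial median lay below the WT mean there, and each of the 3 genes lay above its WT mean. Values of 3 genes do not describe the genes of lymphatic endothelium as a whole. Mmrn1, a further gene of lymphatic endothelium outside the 33, stood at 14.8, 16 and 17.2 CPM (WT) against 24.8, 18.7 and 15.5 CPM (KO). Its groups overlapped, with KO replicate 3 within the WT range. The calls for Flt4 and Lyve1 depended on the analysis. DESeq2 called both (adjusted p = 0.0046 and 0.0252), where it called 1.18% of the genes with an adjusted p, as did edgeR with no filter on low counts (0.0159 and 0.0137, 0.617% of genes called). Without KO replicate 3 edgeR called both as well (0.0176 and 0.00467), together with Cldn5, Mmrn2, Plvap, Nrp1 and Vegfc, which makes 7 of the 33, all higher in KO, where 2.26% of tested genes were called and 1.74% were called higher.

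**Figure D3:**
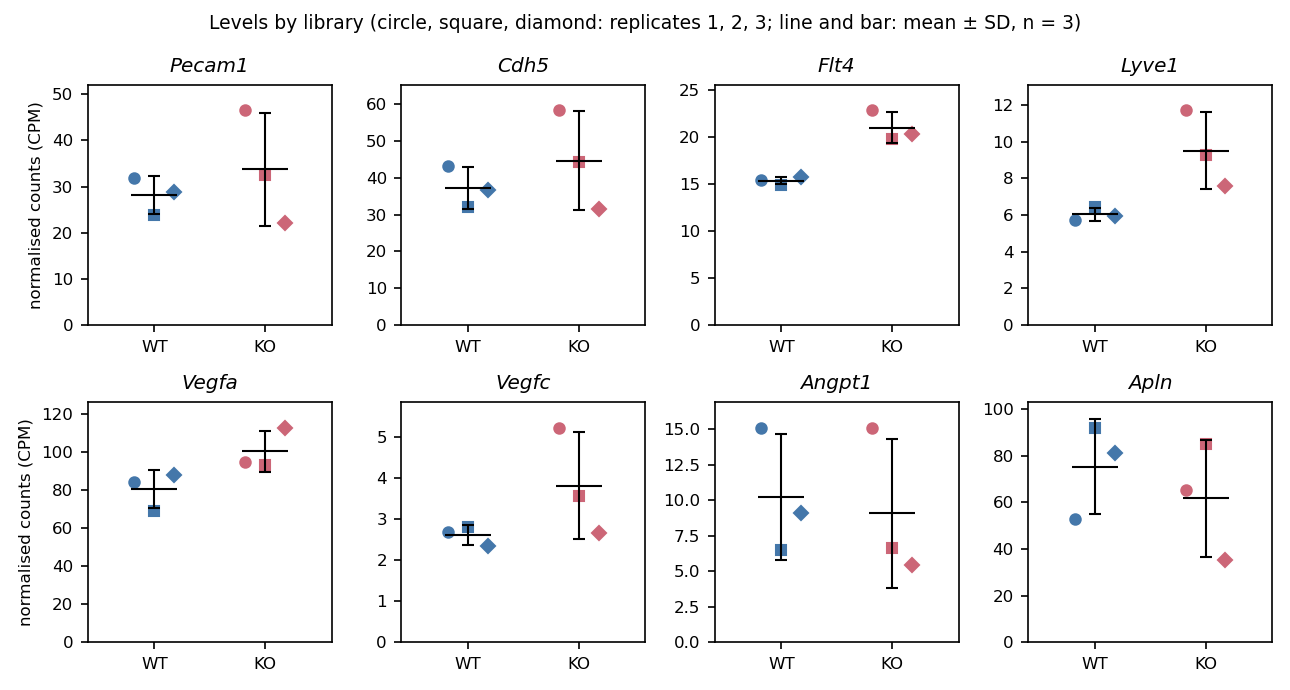
Normalised counts (CPM) of 8 genes in each library, WT in blue and KO in red, with the mean ± SD of 3 libraries. The KO libraries of Pecam1 and Cdh5 enclose the WT range, those of Flt4, Lyve1 and Vegfa lie above it, and those of Vegfc, Angpt1 and Apln overlap it.

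Nrp1, a co-receptor for vascular endothelial growth factor A and for semaphorins that other cell types also make, stood at 23, 24.9 and 24.9 CPM (WT) against 33.7, 31.5 and 21.3 CPM (KO). KO replicates 1 and 2 lay above the WT range and KO replicate 3 below it (0.24 ± 0.16 SE, adjusted p = 0.677, edgeR).

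The ligand genes did not move as a group. Vegfa (chromosome 17, 46016993 to 46032369) stood at 84.5, 69.3 and 88.3 CPM (WT) against 95.1, 93.1 and 113 CPM (KO), so that every KO library lay above every WT library. The log2 fold change was 0.31 ± 0.11 SE (95% interval of 0.07 to 0.56, adjusted p = 0.437, edgeR), with values of 0.2 to 0.38 over the alternative analyses. In contrast to the blood vessel genes, Vegfa was highest in KO replicate 3. Vegfc stood at 2.68, 2.81 and 2.34 CPM (WT) against 5.23, 3.56 and 2.66 CPM (KO) (0.55 ± 0.24 SE, adjusted p = 0.542, edgeR). Its highest library was KO replicate 1, as for the endothelial genes, and it lay 0.24 to 0.29 above the endothelial median in each KO library.

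Angpt1 and Apln varied widely within both groups (SE of 0.52 and 0.4), and Angpt2 less so (0.13). Angpt1, the agonist of TEK, stood at 15.1, 6.46 and 9.06 CPM (WT) against 15.1, 6.66 and 5.44 CPM (KO), a difference of -0.17 ± 0.52 SE (95% interval of -1.5 to 1.16, adjusted p = 0.945, edgeR). Angpt2, which opposes ANGPT1 in many settings, stood at 48.4, 66.1 and 55 CPM (WT) against 53, 42.7 and 50.8 CPM (KO) (-0.21 ± 0.13 SE, adjusted p = 0.646, edgeR). Apln, the apelin gene, stood at 52.9, 92 and 81 CPM (WT) against 65.2, 84.8 and 35.2 CPM (KO) (-0.29 ± 0.4 SE, adjusted p = 0.861, edgeR). All 3 overlapped between groups. Angpt1 was high in WT replicate 1 and KO replicate 1 alike, and Apln was low in KO replicate 3 and WT replicate 1.

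Per length of exon, 3 of the 5 ligand genes had the highest WT means of the 33. In WT, Apln stood at 23.9, Vegfa at 18.8 and Angpt2 at 15.3 CPM per kilobase of exon, above Cldn5 (13.5) and Esam (11.9), the highest endothelial genes. Vegfc and Angpt1 were lower, at 1.07 and 2.4. In KO the order changed, with Vegfa at 23.4, Apln at 19.6, Cldn5 at 17.1 and Angpt2 at 13.2. The 24 endothelial genes had a median of 2.51, from 0.216 (Esm1) to 13.5, and the lymphatic genes lay between 0.328 (Prox1) and 2.07 (Lyve1). The ratio of Vegfa to Kdr on this scale was 5.1, 4.67 and 4.73 in WT and 3.98, 5.59 and 10.5 in KO replicates 1 to 3. KO replicate 3 thus had the highest ratio, with Vegfa at its highest and Kdr at its lowest level there. The ratio of Angpt2 to Angpt1 was 3.71, 11.8 and 7 in WT and 4.06, 7.4 and 10.8 in KO, with the groups overlapping.

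Further endothelial genes outside the 33 had the same order of library medians (0.53, 0.13 and -0.29 in KO). Of 36 other endothelial genes 0 passed the test, the median was 0.17, 28 were highest in KO replicate 1 and 19 were lowest in KO replicate 3. Those with the smallest p were the ephrin receptor gene Ephb4 (91.7 to 93.5 CPM in WT, 105 to 111 CPM in KO, adjusted p = 0.27, edgeR), the chemokine receptor gene Ackr1 (1.02 ± 0.33 SE, adjusted p = 0.406, edgeR) and Stab2, a scavenger receptor gene of sinusoidal endothelium (0.83 ± 0.39 SE, adjusted p = 0.581, edgeR). The semaphorin gene Sema3g stood at 258 to 274 CPM in WT and 280 to 411 CPM in KO, and was the most abundant of the list per length. Sema3g and Ackr1 were highest in KO replicate 3, unlike most of the list. Of 33 tested genes of other angiogenic signals 0 passed, with 18 positive and 15 negative. The growth factor receptor gene Fgfr2 (0.49 ± 0.13 SE), the chemokine scavenger receptor gene Ackr3 (-0.27 ± 0.08 SE) and the growth factor gene Pdgfa (-0.26 ± 0.1 SE) had the smallest p (adjusted p of 0.285, 0.368 and 0.446, edgeR). Among the other VEGF genes, Vegfb stood at 38.3 to 40.8 CPM in WT and 41.4 to 44.5 CPM in KO (0.14 ± 0.07 SE, adjusted p = 0.578, edgeR).

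Of 10 tested angiogenesis inhibitors 0 passed (median 0.06). The metalloproteinase inhibitor gene Timp3 (0.19 ± 0.1 SE), the signalling inhibitor gene Spry4 (-0.22 ± 0.12 SE) and the thrombospondin gene Thbs2 (0.2 ± 0.13 SE) had the smallest p (adjusted p of 0.596, 0.632 and 0.668, edgeR). Thbs1, another thrombospondin gene, was the most abundant at 1020 to 1220 CPM in WT and 884 to 1110 CPM in KO. Of 20 genes of the hypoxia response, which can raise Vegfa, 0 passed and the median was 0.07. The glucose transporter gene Slc2a1 stood at 50.3 to 55.2 CPM in WT and 61.8 to 68.7 CPM in KO (0.31 ± 0.07 SE, adjusted p = 0.214, edgeR) and Bhlhe40, a repressor of transcription, at 32.8 to 43.4 and 54.1 to 78.1 CPM. The carbonic anhydrase gene Car9 stood at 8 to 11.4 CPM in WT and at 6.77 to 7.14 CPM in KO (-0.52 ± 0.14 SE, adjusted p = 0.304, edgeR), and 7 of the 20 were negative. Ldha, the most abundant of the list, stood at 577 to 642 CPM in WT and 566 to 725 CPM in KO. Of the 20, 11 were highest in KO replicate 3, against 21.8% of all tested genes, and 3 were lowest there, against 21.7%. Vegfa and 7 of 10 granulosa markers were highest in that library too. Egln3 stood at 31.1 CPM there against 2.99 to 4.62 CPM elsewhere. A link between the hypoxia genes and Vegfa was not tested.

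Immune and pericyte markers had the same order of KO libraries as the endothelial genes. All 12 macrophage and immune genes were highest in KO replicate 1 and 11 were lowest in KO replicate 3, with summed levels of 229 to 294 CPM in WT and 191 to 359 CPM in KO. Of 12 pericyte and smooth muscle genes, 10 were highest in KO replicate 1 and 9 lowest in KO replicate 3 (301 to 324 CPM in WT, 263 to 430 CPM in KO). The most abundant per length were Lyz2, the lysozyme gene (86.1 to 114 CPM in WT, 63.5 to 122 CPM in KO), and Acta2, smooth muscle actin (126 to 140 and 124 to 175 CPM). Red blood cell, luteal and theca genes shared the high end in KO replicate 1. Their medians in KO replicate 3 were 0.4, 0.4 and 0.2 above the WT mean. Of the red blood cell and luteal genes 0 were lowest in KO replicate 3. Of the 8 theca genes 4 were, Cyp11a1 among them, against 21.7% of all tested genes. In all 7 red blood cell genes every KO library lay above every WT library. For Hba-a2 this was a near tie, with WT replicate 3 and KO replicate 3 both at 56.2 CPM after rounding. The 7 genes summed to 383, 727 and 798 CPM in WT and to 2260, 1340 and 830 CPM in KO, with most of it from the globin gene Hbb-bs. Slc4a1, the anion exchanger, was higher in KO (0.156 to 0.337 CPM in WT, 0.831 to 1.11 CPM in KO, adjusted p = 0.0406, edgeR). It had few counts, 8 to 17 per library in WT and 40 to 52 in KO. Of all tested genes 0.219% passed that threshold. The 8 luteal genes were all highest in KO replicate 1 (6580 to 8660 CPM in WT, 8660 to 15100 CPM in KO), with the steroid dehydrogenase gene Hsd3b1 the most abundant per length. Of 8 theca genes, Cyp11a1 the most abundant per length, 6 were highest there (3920 to 4260 and 4190 to 8070 CPM). Most of that sum came from Cyp11a1, at 2980 to 3260 CPM in WT and 2740 to 5680 CPM in KO. Star and Lhcgr are in both the luteal and the theca list, so these lists are not independent. The 8 stromal fibroblast genes, of which Dcn was the most abundant per length, had 7 members lowest in KO replicate 3 (1000 to 1240 and 676 to 1300 CPM). No marker of these lists was at 0 in all libraries. The summed level of the 24 endothelial genes was 359 to 407 CPM in WT and 616, 431 and 334 CPM in KO replicates 1 to 3. The part of these other cells in the endothelial values was not tested.

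The remaining lists had other orders of libraries in part. The 10 granulosa markers had 7 members highest in KO replicate 3 (12500 to 14600 CPM in WT, 14600 to 18900 CPM in KO). The 10 oocyte genes, Gdf9 the most abundant per length, were all highest in WT replicate 3, and the 8 surface epithelium genes, Lgals7 the most abundant per length, were all lowest in KO replicate 3, where most of the 24 endothelial genes were lowest too. Of 8 platelet and megakaryocyte genes 5 were tested, with medians of 0.71, 0.4 and 0.02 in KO, the order of the endothelial medians, and Itgb3 was the most abundant.

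**Figure D4:**
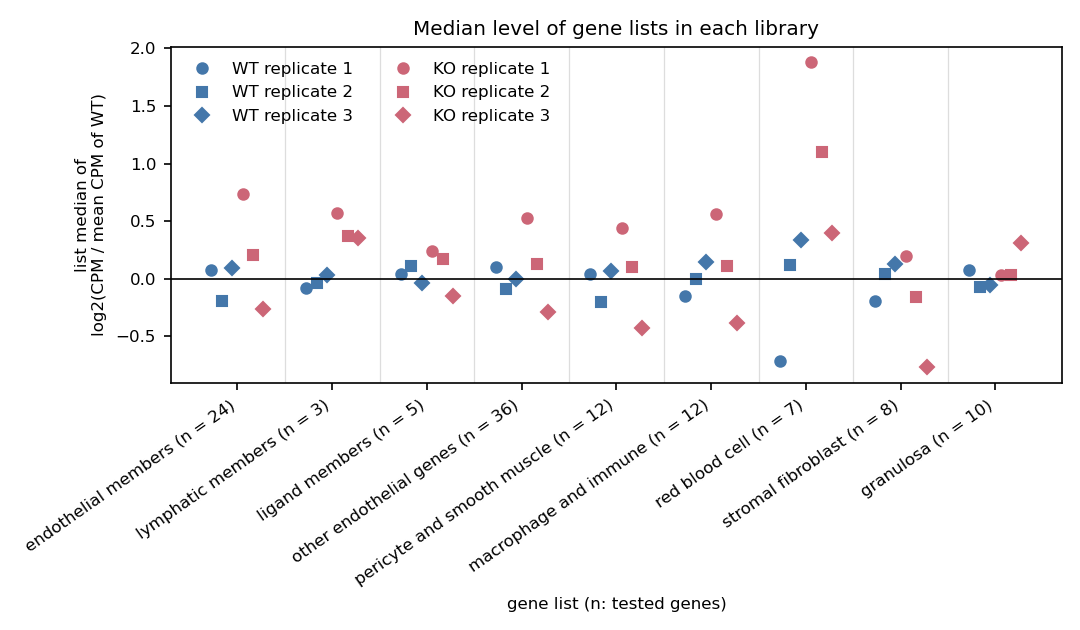
Median of log2(CPM / mean CPM of WT) over the tested genes of each list in each library, WT in blue and KO in red. Endothelial, pericyte and immune lists are highest in KO replicate 1 and lowest in KO replicate 3 (0.74 and -0.26 for the 24 endothelial genes), while the lymphatic and red blood cell lists lie above 0 in all KO libraries (0.35 or more and 0.4 or more).

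Leaving out single libraries showed how far these values rest on KO replicates 1 and 3. Without KO replicate 1 the median fold change of the 24 endothelial genes was -0.04, with 10 positive and 14 negative. Without KO replicate 3 it was 0.5, with all 24 positive. The 3 lymphatic genes had positive values whichever of the 6 libraries was left out, with Flt4 between 0.38 and 0.49, Lyve1 between 0.47 and 0.8 and Prox1 between 0.25 and 0.48.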

How the data were processed

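Per the labels' protocols, RNA of freshly isolated granulosa cells was made into libraries with a NEBNext Ultra kit and sequenced in pairs. Per the submitters' processing notes, the tools named are STAR 2.5.2b, Trimmomatic 0.36 and, from Subread 1.5.2, featureCounts, and the build is GRCm38. The values deposited are raw counts per gene (49315 genes in each of 6 libraries), beside exon lengths in bases. The sources used here do not give the strand setting or the treatment of reads with several matches.

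Identifiers were matched to GENCODE M21 (49056 matched). Genes were kept by filterByExpr (18250), scaled by TMM and tested with edgeR 4.0.16 (R 4.3.3), robust quasi-likelihood, genotype as the only term, Benjamini-Hochberg adjustment over all genes kept, called under 0.05. One CPM corresponds to 42.5 to 51.4 counts. Levels per length divide CPM by exon kilobases. Medians of lists carry no test. The steps were tested on simulated data. The members and lists were chosen with earlier results of these data known. All 33 members were named, with the 3 genes of smallest p of the lists of other angiogenic signals, inhibitors and hypoxia genes, and of each list of cell markers the most abundant per length and those past the threshold. Genes named beyond that (Vegfb, Egln3, Foxl2, Thbs1, Ldha, Ephb4, Ackr1, Stab2, Mmrn1 and Hba-a2) were chosen after their values were seen. Star and Lhcgr were named because they stand in both the luteal and the theca list. Alternatives were RLE and upper quartile scaling, DESeq2 1.42.0, limma-voom 3.58.1 with quality weights, no filter, a mean of at least 1 CPM, a replicate block and leaving out each library.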

Additional observations from a re-analysis of the deposited data

How the results depend on the processing

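The count of genes called over all genes moved with the method: 222 in DESeq2, 72 in limma-voom, 199 with no filter, 21 at a mean of at least 1 CPM, and 8 to 421 without single libraries. Of the 33 members, 2 were called in DESeq2 (Flt4 and Lyve1), 2 with no filter (the same 2), and 0 to 7 without single libraries (7 without KO replicate 3). The endothelial median stayed positive under the other scalings, filters and tools and ranged from -0.04 (without KO replicate 1) to 0.5 (without KO replicate 3). The ligand median rests on 5 genes and changed sign: 0.03 in limma-voom, and -0.28 to 0.22 without single libraries (0.22 without WT replicate 1, 0.01 without KO replicate 2, 0.09 without KO replicate 3). The labels state no pairing by replicate number. Deviations from the group means of same-numbered libraries correlated at -0.02, 0.07 and -0.03 over 18250 genes. WT and KO libraries of different numbers correlated at -0.07 to 0.06. With 3 libraries per group, these values cannot show whether libraries were prepared together. With the replicate block 15 genes and 0 members were called, and the endothelial and ligand medians were 0.22 and -0.2. Of 428 member values under alternatives, 22 had the opposite sign, and none of those was called. Values of these genes without single libraries ran as follows: Pecam1 -0.05 to 0.49, Kdr -0.29 to 0.28, Tek -0.1 to 0.48, Flt1 -0.03 to 0.8, Egfl7 -0.07 to 0.26, Esam -0.36 to 0.1, Robo4 0 to 0.4, Eng -0.04 to 0.57, Erg -0.1 to 0.3, Ramp2 -0.2 to 0.22, Aplnr -0.21 to 0.5, Esm1 -0.47 to 0.43, Nos3 -0.08 to 0.42, Icam2 -0.17 to 0.6, Angpt1 -0.76 to 0.22. Of the leave-one-out values with the opposite sign, 13 came without KO replicate 1. With the replicate block it was Kdr -0.03, and in limma-voom Esm1 -0.31, Apln 0.03. The cause was not tested. Esm1, with as few as 12 counts in a library, is the member whose value depth limits most.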
